A study of Mus musculus with 10 samples.

Results

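Collagens are the triple-helical proteins of the extracellular matrix, and their genes were examined here for H3K27me3, a histone mark of repressed genes, in hematopoietic stem cells with long-term activity (LT-HSCs). Members were all autosomal protein-coding genes of the GRCm38 annotation whose symbol is Col, a number, the letter a and a number, which gave 42 genes of 20807. Col4a5 and Col4a6 lie on chromosome X and were outside this rule. LT-HSCs had been sorted as LSK CD48-CD150+ cells from fetal liver at E14.5, and the mark was profiled by CUT&Tag, in which an antibody (clone C36B11) directs the Tn5 transposase to the chromatin that carries the mark. There were 3 libraries of wild-type (WT) and 3 of IκBα knockout (KO) embryos, out of 10 samples in the series, and the other 4 samples were not used here. The KO is the germline targeted line Nfkbia tm1Bal, which lacks IκBα, an inhibitor of NF-κB, in every cell of the embryo. Embryos came from matings of IκBα heterozygous parents that could also carry a Gfi1:tomato reporter. Several embryos of each genotype were used, over separate experiments. The study names fewer independent experiments than there were libraries of each genotype, so libraries may share an experiment. How the embryos were divided over the libraries, and whether they carried the reporter, is not given in the sources used here. The p-values below thus measure the spread between these libraries.

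A collagen molecule is built of 3 chains that wind into a triple helix, and many types combine the products of different genes. Fibrillar collagens give tensile strength to bone, skin and cartilage, network collagens form the sheets of basement membranes, and FACIT collagens decorate the surface of fibrils. They are made chiefly by fibroblasts, cartilage and bone cells, endothelium and epithelia. H3K27me3 is deposited by Polycomb repressive complex 2 (PRC2), typically over the promoters of developmental genes that are silent in the cell at hand, and CpG-rich promoters are its usual sites.

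The 2 replicate 3 libraries stood apart from the others. They were sequenced with 50 bp reads, where replicates 1 and 2 had 75 bp reads, and held 1047 peaks (WT) and 2325 peaks (KO), against 4160 to 6013 in replicates 1 and 2. Read totals per library, which the study lists, were not used here, and depth was described through the peaks alone. A gene without a peak had no block among the top 0.5% of its library, which is not the same as no mark. Of genes active in these cells, none of 10 blood and stem cell genes (among them Kit, Ptprc, Runx1 and Tal1) and none of 3 always-active genes (Actb, Gapdh, Eef1a1) had a promoter peak in any library. Most coding genes had none either, so this is a weak check of the cell type.

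In fetal liver LT-HSCs, 24 of the 42 collagen genes (57.1%) had an H3K27me3 peak at a promoter, in at least 1 library. The promoter window reached from 5 kb before a transcription start site (TSS) to 100 bp after it, for each TSS in the annotation. Of all autosomal coding genes 16.5% did. A promoter peak was present in at least 3 libraries for 21 collagens (50.0%, against 12.3% of all genes) and in all 6 libraries for 5 collagens (11.9%, against 2.79%). In replicates 1 and 2 of both genotypes, 17 collagens were called in all 4 libraries (40.5%, against 8.98%). The 5 called in all 6 were Col2a1, Col12a1, Col13a1, Col14a1 and Col27a1. No further collagen came in when peaks in the gene body were included (24 collagens, where the share of all genes was 18.2%). Collagen genes were also long and had more start sites than most, with a median length of 110.9 kb against 17.6 kb for all coding genes and a median of 4 TSSs against 3. When 1 TSS was used for each gene, 22 collagens (52.4%) and 14.6% of all genes had a promoter peak in at least 1 library.

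By library, WT replicates 1, 2 and 3 had 19, 22 and 7 collagens with a promoter peak, and the KO replicates had 21, 22 and 10. In the same order these were 45.2%, 52.4%, 16.7%, 50.0%, 52.4% and 23.8% of the collagens. Of all coding genes 11.2%, 13.6%, 3.64%, 13.4%, 12.8% and 8.47% had one. The collagen share thus stood above that of all genes in each of the 6 libraries, and both shares were lowest in the replicate 3 libraries.

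**Figure D1:**
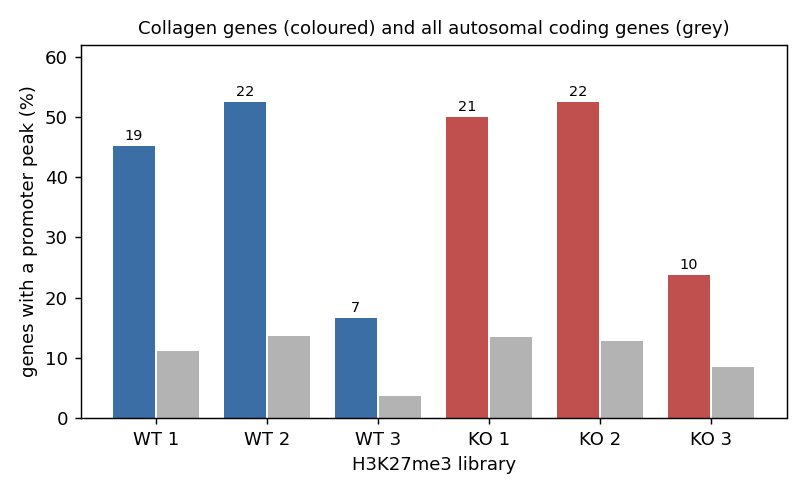
Percentage of collagen genes (coloured bars, blue WT and red KO, with the number of genes above each bar) and of all autosomal coding genes (grey bars) with an H3K27me3 peak at a promoter, for each of the 6 libraries on the horizontal axis. Collagen bars run from 16.7% in WT replicate 3 to 52.4% in replicate 2 of both genotypes, and grey bars from 3.64% to 13.6%.

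Promoter sequences of 6 collagens are given to show the range of base composition behind these calls. They run from 250 bases before to 50 bases after the start site in RefSeq on GRCm38.p6, are written 5′ to 3′ on the strand of the gene, and have each CpG in capitals. Col13a1 and Col27a1 were called in all 6 libraries and are CpG-rich. A call refers to the promoter windows of the gene, and the printed bases need not lie under a peak in each library. Those of Col13a1 lay outside the peak of WT replicate 3. The Col27a1 sequence is at an internal start and fell between the peaks of KO replicate 2. Col4a4 and Col4a1 are each 1 side of a head-to-head pair, the former called and the latter not, Col24a1 was called in 4 libraries with few CpGs, and Col3a1 was called in none.
Col13a1 promoter, chr10:61979059-61979358, minus strand: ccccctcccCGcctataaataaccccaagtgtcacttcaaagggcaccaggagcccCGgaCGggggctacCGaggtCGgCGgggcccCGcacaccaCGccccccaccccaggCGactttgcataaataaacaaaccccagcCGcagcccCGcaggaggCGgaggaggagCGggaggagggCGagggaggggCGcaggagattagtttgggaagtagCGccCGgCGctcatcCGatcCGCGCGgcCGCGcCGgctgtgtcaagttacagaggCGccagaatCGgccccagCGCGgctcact
Col27a1 promoter, chr4:63215162-63215461, plus strand: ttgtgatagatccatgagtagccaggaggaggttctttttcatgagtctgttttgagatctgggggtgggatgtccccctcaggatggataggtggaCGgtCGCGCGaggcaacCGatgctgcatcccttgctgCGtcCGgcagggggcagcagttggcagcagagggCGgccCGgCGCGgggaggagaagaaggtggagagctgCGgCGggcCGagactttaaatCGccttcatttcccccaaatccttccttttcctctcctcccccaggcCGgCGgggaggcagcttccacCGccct
Col4a4 promoter, chr1:82586800-82587099, minus strand: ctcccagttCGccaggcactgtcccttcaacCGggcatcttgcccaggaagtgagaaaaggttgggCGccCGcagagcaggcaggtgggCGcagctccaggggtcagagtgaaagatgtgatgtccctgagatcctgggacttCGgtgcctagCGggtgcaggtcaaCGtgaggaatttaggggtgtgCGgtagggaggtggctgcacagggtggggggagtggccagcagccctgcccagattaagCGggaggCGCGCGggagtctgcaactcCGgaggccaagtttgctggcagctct
Col4a1 promoter, chr8:11312777-11313076, minus strand: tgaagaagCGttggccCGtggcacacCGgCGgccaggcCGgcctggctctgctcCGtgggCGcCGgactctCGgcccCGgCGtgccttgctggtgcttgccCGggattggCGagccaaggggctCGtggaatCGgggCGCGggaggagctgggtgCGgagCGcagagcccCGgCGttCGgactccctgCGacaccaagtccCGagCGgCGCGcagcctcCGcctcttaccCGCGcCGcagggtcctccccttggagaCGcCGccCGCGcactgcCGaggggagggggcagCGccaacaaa
Col24a1 promoter, chr3:145292222-145292521, plus strand: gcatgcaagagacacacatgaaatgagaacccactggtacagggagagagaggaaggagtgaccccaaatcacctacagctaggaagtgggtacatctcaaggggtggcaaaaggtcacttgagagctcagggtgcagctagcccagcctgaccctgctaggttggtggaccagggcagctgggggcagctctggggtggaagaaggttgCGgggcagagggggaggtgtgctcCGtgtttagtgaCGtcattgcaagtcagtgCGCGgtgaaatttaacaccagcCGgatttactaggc
Col3a1 promoter, chr1:45311288-45311587, plus strand: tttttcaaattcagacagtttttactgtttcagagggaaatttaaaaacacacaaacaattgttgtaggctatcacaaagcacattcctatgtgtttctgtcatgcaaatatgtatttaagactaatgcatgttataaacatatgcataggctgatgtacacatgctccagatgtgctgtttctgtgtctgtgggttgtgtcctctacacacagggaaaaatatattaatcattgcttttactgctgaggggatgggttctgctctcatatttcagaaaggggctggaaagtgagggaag

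In these windows of 300 bases there were 29 CpGs for Col13a1, 18 for Col27a1, 14 for Col4a4, 37 for Col4a1, 6 for Col24a1 and 0 for Col3a1. The RefSeq promoter table held an entry for 33 of the 42 collagens and none for Col1a1, Col2a1, Col4a3, Col5a2, Col9a3, Col12a1, Col14a1, Col22a1 and Col26a1. The 17 matched collagens with a promoter peak had a median of 16 CpGs (1 to 34) and the 16 without one a median of 6 (0 to 37), where all 31396 autosomal promoters of the table had a median of 7. The GC box GGGCGG, which itself contains a CpG, was found on either strand in 11 of 17 and 9 of 16 of these promoters and in 36.0% of all. The TATA box motif TATAAA was found on either strand in 1 of 17 and 4 of 16 and in 13.6% of all, Col3a1 being among the 4.

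A wider window of 500 bp on each side of the main start site was read from the genome for every collagen. Here the collagens with a promoter peak again had more CpG than those without, but less than the median of all coding genes. The ratio of observed to expected CpGs had a median of 0.523 (0.0855 to 0.874) in the 24 collagens with a promoter peak and 0.299 (0.0844 to 0.785) in the 18 without. It was 0.74 in the 5 called in all 6 libraries and 0.572 over all coding genes. Coding genes with a promoter peak had a median of 0.628 and those without 0.546, so this contrast was not particular to collagens. A ratio of 0.6 or more, a customary limit for a CpG island, was reached by 13 collagens, of which 11 had a promoter peak in at least 1 library (84.6%, against 18.9% of all genes with such a ratio). Below it, 13 of 29 collagens had a peak (44.8%, against 14.2%). The 2 CpG-rich collagens without a peak were Col4a1 and Col4a2, with ratios of 0.775 and 0.785. At the other end, Col24a1 (0.257) and Col1a1 (0.3) had peaks and a low ratio. The lowest ratio of the called genes, 0.0855, was that of Col20a1 at its main start, whereas its peaks lay at internal starts.

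**Figure D2:**
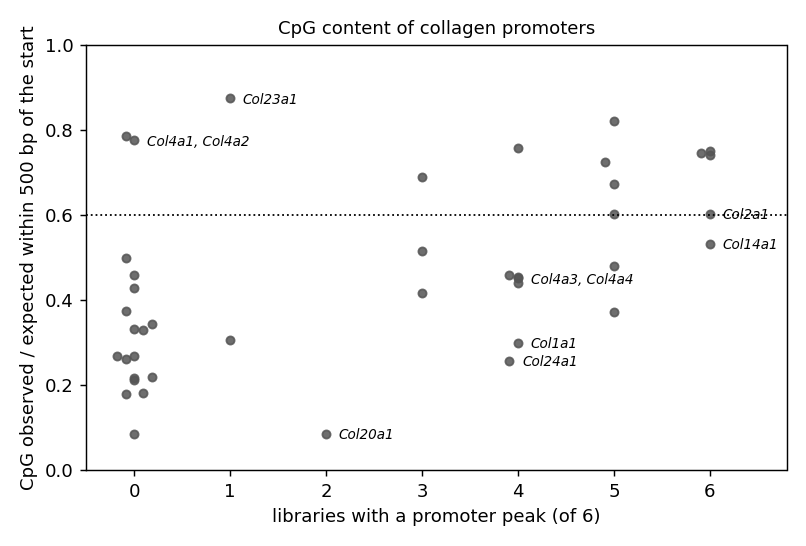
Ratio of observed to expected CpGs within 500 bp of the main start site (vertical axis, no unit) against the number of libraries with a promoter peak (horizontal axis, 0 to 6) for the 42 collagen genes, 1 point each, with the limit of 0.6 dotted. Col4a1 and Col4a2 sit above the line at 0 libraries, and 4 of the 5 genes at 6 libraries sit above it, Col14a1 (0.532) being the exception.

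Each class of collagen had at least 1 member with a promoter peak. A promoter peak in at least 1 library was found in 6 of 11 fibrillar collagens, 4 of 7 network collagens, 7 of 9 FACIT collagens, 3 of 4 transmembrane collagens, 1 of 2 multiplexins, and in the anchoring-fibril collagen Col7a1 and in Col26a1. Among the beaded-filament collagens and their relatives it was 1 of 7, and this was Col6a6 in WT replicate 2 alone (total signal 7532), a share close to the 16.5% of all coding genes. The classes are small and were not tested against each other. The 18 collagens with no peak in any library, at the promoter or in the body, were Col1a2, Col3a1, Col4a1, Col4a2, Col5a2, Col6a1, Col6a2, Col6a3, Col6a4, Col6a5, Col9a1, Col10a1, Col11a1, Col11a2, Col17a1, Col18a1, Col22a1 and Col28a1.

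**Figure D3:**
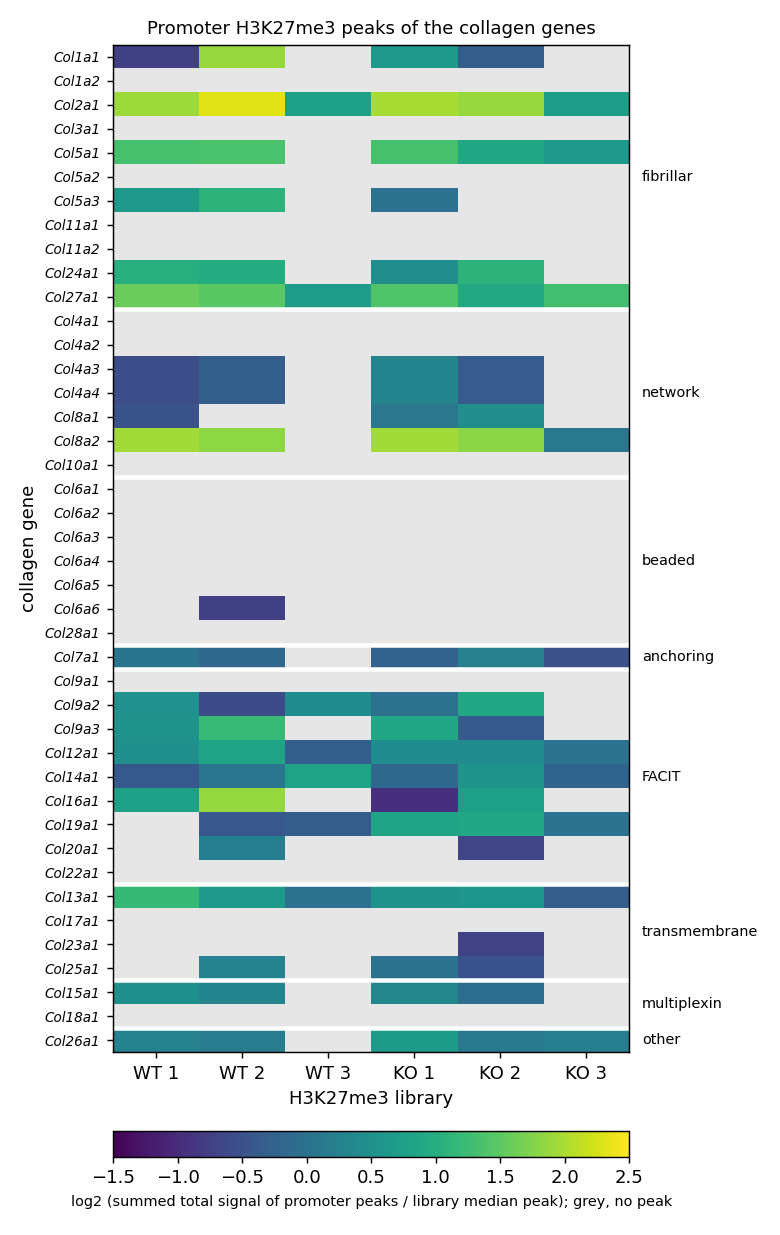
Promoter H3K27me3 signal of the 42 collagen genes (rows, by class) in the 6 libraries (columns), coloured by the log2 of the summed total signal of promoter peaks over the total signal of the library's median peak, with grey where no promoter peak was called. Col2a1 has a coloured cell in each column, the Col6 genes are grey save for Col6a6 in WT replicate 2, and the columns of both replicate 3 libraries are mostly grey.

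Signal is given below as relative signal, the total signal (summed fragment coverage) of the promoter peaks of a gene divided by the total signal of the median peak of that library, because the deposited values are not scaled to depth. Where a gene had promoter peaks at several start sites, these were added together. For WT replicates 1 to 3 the median peak had a total signal of 12362, 12628 and 4303, and for KO of 13972, 12627 and 10398. The highest fragment coverage within any collagen promoter peak was 4 to 20 fragments, so a single value rests on few fragments.

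Among the fibrillar collagens, Col2a1 (ENSMUSG00000022483.17), the collagen of cartilage, had a promoter peak in all 6 libraries. Its peaks merged to chr15:97996803-98011887, over the 5′ end of the gene. In WT replicates 1 to 3 its relative signal was 3.78, 4.94 and 1.71, and in KO 3.94, 3.7 and 1.66. WT and KO overlapped, and both replicate 3 libraries were lowest. Up to 27.1% of the gene body (WT replicate 1) lay under a peak. Col27a1 (ENSMUSG00000045672.15, region chr4:63209537-63219089), another collagen of cartilage, had values of 2.99, 2.77 and 1.64 for the WT libraries and 2.65, 1.89 and 2.44 for the KO libraries. Here too the groups overlapped. The value of KO replicate 2 leaves out a second peak inside the same region, 222 bp from a TSS and just outside the promoter window, with relative signal of 0.752.

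Of the chains of type I and type V collagen, Col1a2 and Col5a2 had no peak where their partners Col1a1 and Col5a1 did. Type I collagen of bone and skin is built from Col1a1 and Col1a2, and Col1a1 (ENSMUSG00000001506.10) had a promoter peak in replicates 1 and 2 of both genotypes where Col1a2 had none in any library. For Col1a1, WT replicates 1 and 2 had relative signal of 0.596 and 3.7, and KO replicates 1 and 2 of 1.56 and 0.802, with no peak in either replicate 3. The 2 libraries of each genotype differed in where the peak lay. In WT replicate 1 and KO replicate 2 it was upstream and ended 1221 and 611 bp short of the TSS, whereas in WT replicate 2 it ran through 65.5% of the gene body.

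Type V collagen, which seeds fibrils, is built from Col5a1, Col5a2 and Col5a3. Col5a1 (region chr2:27881942-27891951) was called in 5 libraries, and Col5a2 in none. WT replicates 1 and 2 had relative signal of 2.52 and 2.56 at Col5a1, and the KO replicates of 2.53, 1.87 and 1.57, so that the genotypes overlapped. Col5a3 had a promoter peak in WT replicates 1 and 2 (1.57 and 2.12) and KO replicate 1 (1.01), and in KO replicate 2 body peaks alone, 2927 and 40966 bp from the TSS. WT replicates 1 and 2 also had the distant body peak, 42097 and 41417 bp from the TSS. The promoter region of Col5a3, chr9:20809866-20817155, also covered the promoter of Rdh8, a retinol dehydrogenase gene, so its signal cannot be given to 1 gene. Col24a1, a minor fibrillar collagen of developing bone, had relative signal of 2.02 and 1.96 for WT replicates 1 and 2, within the range of the KO pair (1.38 and 2.12), and no peak in replicate 3. Besides its promoter region (chr3:145290228-145296519) it held further separate peaks in the gene body, most of them between 15 and 60 kb from the 5′ end.

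**Figure D4:**
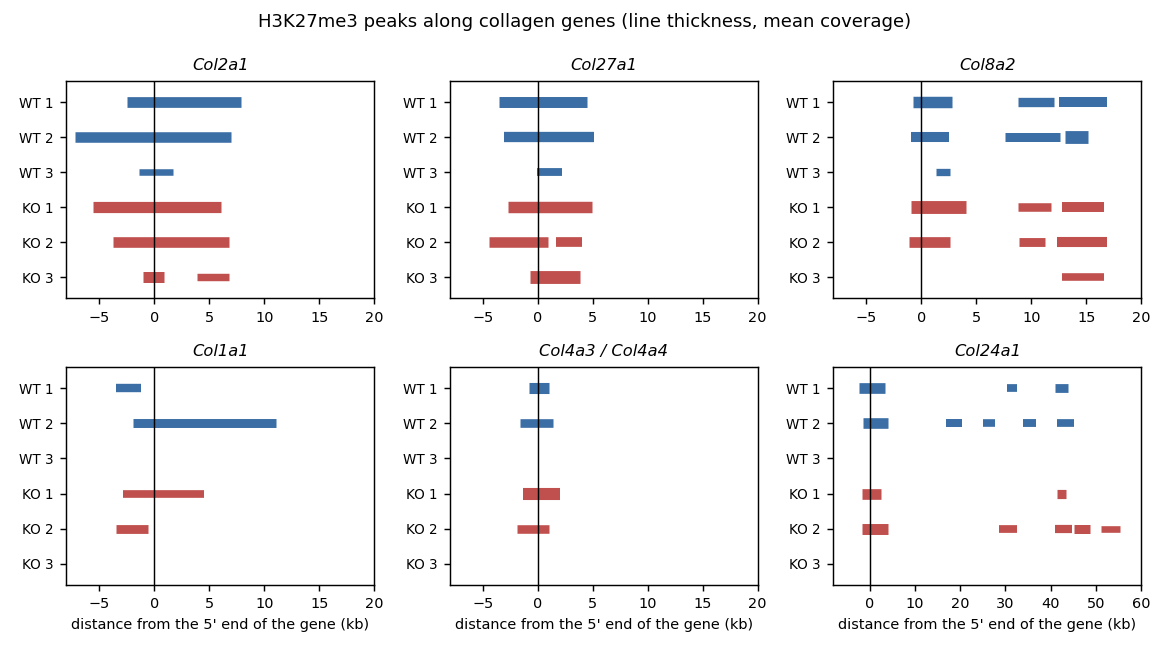
H3K27me3 peaks along 6 collagen genes as bars in the 6 libraries (rows, blue WT and red KO), against the distance in kb from the 5′ end of the gene, with bar thickness for mean coverage and for Col24a1 a longer axis. Col2a1 and Col27a1 have peaks at or beside the 5′ end in all 6 libraries, Col1a1 has peaks on different sides of it, and Col8a2 and Col24a1 have separate downstream peaks.

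Network collagens included both head-to-head pairs. Their chains join into the basement membrane collagen type IV, and each pair is transcribed outward from 1 shared promoter. Col4a3 and Col4a4 start 72 bp apart on chromosome 1 (82586921 on the plus strand and 82586849 on the minus strand), and a single peak covered both starts in replicates 1 and 2 of each genotype. The 2 WT libraries had relative signal of 0.683 and 0.819 and the 2 KO libraries of 1.24 and 0.785, which overlapped. The highest coverage under the peak reached 9 and 9 fragments (WT) and 14 and 11 (KO). These are values of 1 region (chr1:82585011-82588937) and not of 2 independent genes.

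Col4a1 and Col4a2, which encode the chains of most basement membranes, overlap at their starts on chromosome 8 (11312826 on the minus strand and 11312805 on the plus strand, 21 bp apart). No library had a peak at their promoter or in either gene body. Of the 2 shared promoters the unmarked one was thus the richer in CpG (14 CpGs in the sequence of Col4a4 and 37 in that of Col4a1). No other coding gene started within 1 kb of a collagen TSS on the opposite strand. Among other collagens next to each other, Col3a1 and Col5a2 lie tail-to-tail 24614 bp apart with no peak at either promoter, and Col9a1 and Col19a1 lie tail-to-tail 9205 bp apart with promoter peaks in 0 and 5 libraries. Col6a6, Col6a5 and Col6a4 lie in tandem and had promoter peaks in 1, 0 and 0 libraries.

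The other network collagens gave a further pair of partners. Col8a2, a collagen of the cornea and of vessel walls, had relative signal of 3.85 and 3.54 for WT replicates 1 and 2 against 3.85, 3.48 and 1.07 for the KO replicates, the values of replicates 1 and 2 being sums over 3 peaks. WT replicate 3 had a body peak only, 1286 bp from the TSS, and KO replicate 3 was called only at an internal TSS. Col8a1, its partner in type VIII collagen, was called in WT replicate 1 (0.716) and KO replicates 1 and 2 (1.06 and 1.37). WT replicate 2 had no call for Col8a1. Col10a1, a collagen of growth plate cartilage, had no peak.

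Of the 9 FACIT collagens 7 had a promoter peak in at least 1 library. Col12a1 (region chr9:79716679-79722570) and Col14a1 (chr15:55305460-55311027), which coat fibrils in tendon and skin, were called in all 6 libraries. Col12a1 had relative signal of 1.42, 1.78 and 0.816 for the WT replicates and 1.36, 1.34 and 1.02 for the KO replicates. Col14a1 had 0.76, 1.05 and 1.76 for WT and 0.89, 1.48 and 0.866 for KO. Both genes overlapped between genotypes, and WT replicate 3 was the lowest library for Col12a1 but the highest for Col14a1.

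Type IX collagen of cartilage is built from Col9a1, Col9a2 and Col9a3, and the last 2 of these had peaks. Col9a2 had relative signal of 1.43, 0.677 and 1.36 for the WT libraries, and of 0.993 and 1.84 for KO replicates 1 and 2. Col9a3 was called in replicates 1 and 2 alone, with values of 1.47 and 2.29 for WT and 1.85 and 0.774 for KO. The groups overlapped for both genes. In WT replicate 2, Col9a2 was called at an internal TSS alone. Col9a1 had no peak in any library.

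Col19a1, a collagen of muscle and nerve, had promoter peaks in 5 libraries. WT replicates 2 and 3 had relative signal of 0.748 and 0.801, and the KO replicates of 1.78, 1.85 and 1.02. In WT replicate 1 a peak began 180 bp from the TSS, just outside the promoter window, and lay within the same merged region (chr1:24582710-24588585). Col16a1, a minor fibril-associated collagen, had relative signal of 1.72 and 3.65 for WT replicates 1 and 2 and of 0.52 and 1.69 for KO. These are sums over 1 and 3 promoter peaks in WT and 1 and 2 in KO. None of the signal lay at the 5′ end of the gene, but around internal start sites. The main region (chr4:130073219-130080443) alone gave 1.72 and 2.39 in WT and 0.52 and 1.09 in KO. How many other genes had both WT values above both KO values was not counted. Col20a1 had peaks in replicate 2 of WT and KO alone, likewise at internal starts (1.17 and 0.63), and Col22a1 had none.

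Transmembrane collagens span the plasma membrane of the cell that makes them. Col13a1 (ENSMUSG00000058806.14, region chr10:61976250-61981588), a collagen of the neuromuscular junction, was called in all libraries, with relative signal of 2.26, 1.56 and 0.991 for WT and 1.46, 1.51 and 0.802 for KO. The value of WT replicate 1 included a second promoter peak at a distant internal start (chr10:61848923-61852878), without which it was 1.64. The genotypes overlapped, and both replicate 3 libraries were again lowest. Col25a1, a collagen of neurons, had promoter peaks at an internal start (130180891 on chromosome 3) in WT replicate 2 (1.21) and KO replicates 1 and 2 (1.01 and 0.71), and a body peak 443 bp from a TSS in WT replicate 1. Col23a1 had a promoter peak in KO replicate 2 alone (0.61), with a body peak 290 bp from the TSS in WT replicate 2. Col17a1 of the epidermal hemidesmosome had no peak.

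The remaining marked members were Col7a1, Col15a1 and Col26a1. Col7a1, which anchors the epidermis to the dermis, had relative signal of 1.03 and 0.907 for WT replicates 1 and 2 against 0.841, 1.18 and 0.705 for the KO replicates. Col15a1, a multiplexin of vessel and muscle basement membranes, had 1.42 and 1.23 for WT and 1.26 and 0.964 for KO, each in replicates 1 and 2. Col26a1, a secreted collagen of the developing testis and ovary, had 1.2 and 1.15 for WT replicates 1 and 2 against 1.6, 1.08 and 1.16 for the KO replicates. WT and KO overlapped for all 3 genes. Col18a1, the other multiplexin, and the Col6a1, Col6a2 and Col6a3 genes, whose products make up type VI collagen around cells, had no peak in any library.

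Over all libraries there were 113 promoter peaks of collagens, each counted once. A TSS lay inside 102 of them, the highest point of 85 lay within 1 kb of a TSS, and the median distance from highest point to TSS was 458 bp. The highest point was downstream of the nearest TSS in 60 peaks and upstream in 51, and 110 peaks overlapped an exon. Another 25 peaks lay in a collagen gene body without reaching a promoter. By gene, 21 of the 24 collagens were called at their 5′ end in at least 1 library, and Col16a1, Col20a1 and Col25a1 at internal starts only.

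To ask whether loss of IκBα changed the mark at collagens, calls were first compared by genotype. WT libraries had 16.0 ± 7.94 collagens with a promoter peak and KO libraries 17.7 ± 6.66 (SD, n = 3 each), a difference smaller than the spread between replicates when all peaks were used. The direction depended on which peaks were used. With the 1047 strongest peaks of each library, which are all the peaks of WT replicate 3 but only the top of the longer lists of the other libraries, WT libraries had 6, 7 and 7 collagens with a promoter peak and KO libraries 4, 5 and 4, a difference of -2.33. The groups did not overlap here, and the SD was 0.577 in each, but lists of different length were cut to 1 number, and 3 libraries against 3 cannot give p below 0.1 in an exact permutation test, so no change is read from it. Of all coding genes, 4.15%, 4.01% and 3.64% in WT and 4.56%, 4.14% and 4.39% in KO had a promoter peak among the same peaks. With all peaks, KO minus WT was 2, 0 and 3 collagens in same-numbered pairs. The mean difference of 1.67 turned to -2.83 without WT replicate 3 and to -0.5 without KO replicate 2. No collagen was called in all 3 libraries of 1 genotype and none of the other (0.0961% of all genes were). A promoter peak in at least 2 of 3 libraries was found for 19 collagens in WT (45.2%, against 10.6% of all genes) and 20 in KO (47.6%, against 12%).

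More KO than WT libraries had a promoter peak for 8 of the 42 collagens (against 7.76% of all genes), namely Col5a1, Col7a1, Col8a1, Col8a2, Col19a1, Col23a1, Col25a1 and Col26a1. More WT than KO libraries had one for 3 (7.14%, against 2.4%), namely Col5a3, Col6a6 and Col9a2. Most genes had no promoter peak in any library and could not differ. Of the 3424 genes with one, 1614 had it in more KO and 499 in more WT libraries, against 8 and 3 of the 24 collagens. On this basis neither count of collagens was in excess. KO replicate 3 had more than 2 times the peaks of WT replicate 3 (2325 and 1047), and 4 of the 8 no longer counted when replicate 3 was left out. In replicates 1 and 2 alone, Col8a1, Col19a1, Col23a1 and Col25a1 were called more often in KO (9.52%, against 3.64%) and Col5a3 and Col6a6 more often in WT (4.76%, against 2.48%). Of the 3424 genes with a promoter peak, 758 were called more often in KO and 516 more often in WT in these replicates. A peak in both KO libraries and neither WT library of these replicates was found for 0 collagens (0.461% of all genes). With body peaks counted too, 1 collagen was called more often in each direction (2.38% each, against 3.56% and 2.52%).

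Signal was then tested with limma at the 718 regions called in all 6 libraries, on log2 total signal centred on the median of each library over these regions. With Benjamini-Hochberg adjustment at 0.05, 0% of regions passed, and 8 (1.11%) had an unadjusted p-value under 0.05, 4 higher and 4 lower in KO. Of the 6 collagen regions, 0 passed at either level. At Col19a1 the WT replicates had centred log2 signal of -1.34, -1.86 and -0.44, and the KO replicates of -0.55, -0.34 and -0.59, so that WT replicate 3 lay among the KO libraries. This gave a log2 difference (KO minus WT) of 0.72 ± 0.39 (SE, limma adjusted p = 0.993). With maximum signal in place of total signal the difference was 0.0093, and per covered base 0.093.

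For the other collagen regions the differences were smaller. They were -0.37 ± 0.32 for Col13a1, -0.33 ± 0.31 for Col2a1, -0.30 ± 0.56 for Col14a1, -0.25 ± 0.30 for Col12a1 and -0.08 ± 0.33 for Col27a1 (SE, limma adjusted p = 0.993 each). Their median was -0.27 with Col19a1 included, where all 718 regions had a median of -0.02. Under total signal per covered base the collagen median was 0.12, so its sign depended on the measure. The 3 KO libraries were all above the WT libraries at 2.23% of the 718 regions and all below at 4.46%, and at 0 of the 6 collagen regions in either direction. The median SE over all regions was 0.37, which limits what 3 libraries against 3 could show here.

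**Figure D5:**
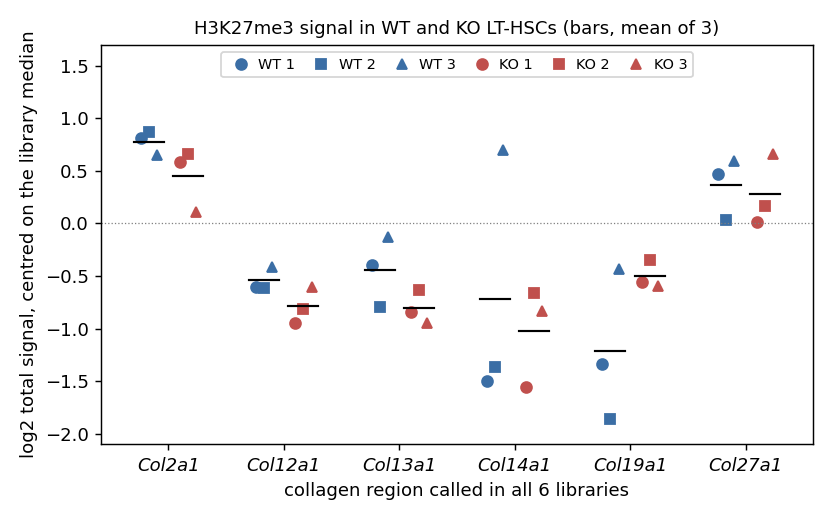
Centred log2 total signal (vertical axis) of the 6 collagen regions called in all libraries (horizontal axis), with 1 point for each WT (blue) and KO (red) library, a marker shape for each replicate number, and a bar for the mean of 3. WT and KO points overlap at all 6 regions, and WT replicate 3 lies apart from the other WT libraries at Col14a1 (0.70) and Col19a1 (-0.44).

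Within the 75 bp batch (2 libraries of each genotype), 2558 regions were called in all 4 libraries, 20 of them at collagens. After adjustment 0% of the regions passed in limma, and 4.65% had an unadjusted p-value under 0.05. At the unadjusted level 3 of the 20 collagen regions did, with log2 differences of 1.16 ± 0.34 for Col19a1, -1.46 ± 0.43 for Col16a1 and -1.26 ± 0.36 for Col5a3 (SE, limma adjusted p = 0.997 each). The Col5a3 region also covers the Rdh8 promoter. Its KO replicate 2 value came from a peak in the gene body, 2927 bp from the TSS. The 50 bp batch held 1 library of each genotype and allowed no test.

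Genes that make, process or bind collagen were counted in the same way, without a test against the collagens or all genes. A gene was counted when it had a promoter peak in at least 1 library, as 16.5% of all genes did. Partner genes called in all 6 libraries were Adamts2, which cuts procollagen propeptides, Lox, which cross-links fibrils, and Mmp9, a gelatinase. By group, 4 of 6 propeptide-processing genes (Bmp1, Adamts2, Adamts14, Pcolce2), 3 of 5 cross-linking genes (Lox, Loxl1, Loxl4) and 2 of 5 collagenases and gelatinases (Mmp9, Mmp14) had a peak. So had 2 of 6 receptors (Itga11, Ddr1) and 1 of 7 fibril-binding matrix genes (Tnc). Of the 10 intracellular enzymes and chaperones of collagen synthesis, P4ha2, P4ha3 and Colgalt2 had a peak, and the other 7, among them Serpinh1, the collagen chaperone, had none.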

How the data were processed

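H3K27me3 CUT&Tag peaks of 6 LT-HSC libraries (3 WT, 3 KO) were analysed, with groups and replicate numbers from the sample labels. The authors trimmed reads with Trim Galore 0.6.6, aligned them to GRCm38 with Bowtie2 2.4.4, removed low-quality, multi-mapped and duplicate reads, and called peaks in each library by itself with SEACR 1.3 in stringent mode, keeping the top 0.5% of blocks without an IgG control. The deposited columns hold the total signal of a peak (summed fragment coverage) and its maximum signal (highest fragment coverage). Neither is scaled to depth, so raw values are not directly comparable between libraries. The relative threshold also makes the number of peaks depend on depth and background.

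Genes and TSSs came from GENCODE M21 on GRCm38.p6, and coordinates are 1-based. A peak marked a gene when it overlapped a promoter (from 5 kb before to 100 bp after any TSS) by at least 1 bp. Peaks of all libraries were merged into regions, and regions with a peak in every library were fitted with limma 3.58.1 in R 4.3.3, genotype being the only term. The fit was tested on simulated data. Counts were made in Python 3.11.15 with numpy 2.4.6 and pandas 2.3.3. All members were counted, those with a peak in at least 3 libraries were described with values in each library, and neighbours were named when a start lay within 1 kb on the other strand or a promoter was overlapped. Another list of partner genes is not reported here. The members and lists were chosen with earlier results of these data known. Promoter sequences came from RefSeq.

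To check pairing, each library's deviation from its group mean was correlated over the 718 regions (which are no replicates). WT and KO of replicate 1, 2 and 3 gave r of 0.28, 0.31 and 0.48, so that a fit with replicate number as a block was an alternative. WT replicate 2 with KO replicate 1 gave 0.27, and WT replicate 1 with KO replicate 2 gave 0.12. Pairs of replicate 3 with another number gave -0.44 to -0.28. The values thus set replicate 3 apart but hardly pair replicates 1 and 2 by number. Alternatives changed the promoter window, the TSSs, the overlap, the peaks and libraries kept, the scaling, the measure and the weights.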

Additional observations from a re-analysis of the deposited data

How the results depend on the processing

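Collagens with a promoter peak in at least 1 library numbered 24, and 23 or 24 when 1 library was left out, but 15 when the 1047 strongest peaks of each library were used. The number called in every library was 5, and it was 1 with the 1047 strongest peaks, 1 with peaks above the library median, 17 in the 75 bp libraries and 5 to 9 when 1 library was left out, 9 being the value without WT replicate 3. The mean difference between KO and WT in the number of marked collagens was 1.67, and -2.83 to 5.5 with 1 library left out. With the 1047 strongest peaks it was -2.33, and the genotypes did not overlap. In 13 alternatives of the limma test, 0 collagen regions passed, with adjusted p-values between 0.662 (array weights, Col19a1) and 1. The replicate block changed no call (Col19a1, limma adjusted p = 0.907). The median log2 difference over collagen regions of -0.27 became 0.12 per covered base and -0.33 to -0.06 with 1 library left out.

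Direction was kept in all 13 alternatives for Col2a1 and Col19a1, but the difference of Col19a1 fell from 0.72 to 0.0093 with maximum signal and 0.093 per covered base, and that of Col2a1 went from -0.33 to -0.030 per covered base. Per covered base, Col13a1 turned to 0.22, Col12a1 to 0.15, Col14a1 to 0.55 and Col27a1 to 0.066. With maximum signal, Col14a1 was 0.19 and Col27a1 0.12. Col14a1 also turned positive in the 75 bp libraries (0.34), with array weights (0.093) and without WT replicate 3 (0.42, its highest value with 1 library left out, the lowest being -0.68), and Col27a1 without WT replicate 3 (0.04) and without KO replicate 1 (0.055, the lowest being -0.26). The cause was not tested. The use of 1 TSS for each gene was chosen after seeing the data. Few fragments per peak and the small replicate 3 libraries limit all calls.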
